A study of Mus musculus with 11 samples.

Results

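Matrix glycoproteins and proteoglycans, the non-collagen proteins that give connective tissue its elasticity, hydration and signalling surface, were measured as mRNA in bulk RNA-seq of mouse heart apex. The 35 genes were taken from a list of names, each matched to its Ensembl identifier, and were 35 of the 55414 gene identifiers in the files. The list was split by role into 12 elastic fibre genes, 7 small leucine-rich proteoglycan genes, 7 matricellular and SPARC family genes and 9 other matrix genes. All libraries came from the apex of C57BL/6 mice with no allele or transgene named, and the labels state neither age nor sex. The NR group (4 libraries, numbered 1 to 4) was not irradiated. The S-PRT group (4 libraries, 1 to 4) had received 40 Gy of standard proton radiotherapy focused on the apex, and the F-PRT group (3 libraries, 2 to 4) the same dose as FLASH proton radiotherapy, in which the dose is given at an ultra-high rate. Tissue of both irradiated groups was taken 2 weeks after irradiation. Nothing in the labels ties each library to its own animal, and p-values then reflect only the scatter among libraries, which may be technical.

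Elastic fibres are built around a core of elastin on a scaffold of fibrillin microfibrils, and fibulins, EMILINs and microfibril-associated proteins join the parts. Small leucine-rich proteoglycans such as decorin bind collagen fibrils and control their width and spacing. Matricellular proteins such as periostin, tenascin-C and SPARC are made mostly in development and in injured tissue, where they change how cells hold on to the matrix, and in the heart fibroblasts are a main source of most of these proteins.

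Each library held 20758170 to 40136578 expected counts, and all 35 genes were among the 14556 genes that passed the filter on low counts. Cardiomyocyte marker genes (6 genes) summed to 19276.5 to 39236 TPM (a transcript level per length and per library) per library. Markers of adipocytes (4 genes) and of valve or cartilage-like cells (5 genes) were each under 1 TPM in every library. Replicates 3 and 4 both lay above replicates 1 and 2 for 27 of the 35 genes in NR (77.1%, against 26.1% of all genes tested) and for 26 of 35 in S-PRT (74.3%, against 30.8%). Library F-PRT 3 was the lowest of all 11 libraries for 24 of the 35 genes, S-PRT 3 the highest for 17 and NR 4 the highest for 13, so results are also given without the library they rest on.

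On the TPM scale, decorin (Dcn) had the highest level of the list in unirradiated apex, at 154.0 ± 53.3 TPM (SD, n = 4). It was followed by matrix Gla protein (Mgp), an inhibitor of calcification, at 101.8 ± 23.5 TPM, and by Sparc at 97.5 ± 36.4 TPM. The order then ran through Sparcl1 (69.0 ± 27.6 TPM), biglycan (Bgn, 46.0 ± 20.3 TPM) and osteoglycin (Ogn, 30.3 ± 4.67 TPM). At the low end were Spock2 (0.94 ± 0.32 TPM), fibromodulin (Fmod, 0.50 ± 0.53 TPM), tenascin-C (Tnc, 0.078 ± 0.064 TPM) and fibrillin-2 (Fbn2, 0.075 ± 0.050 TPM). Each gene overlapped in range with the next in the order, for all 34 neighbouring pairs, so only genes farther apart in the order were separated by more than the spread between libraries. In both irradiated groups Sparc took the first place and Dcn the second, at 141.7 ± 60.5 and 109.4 ± 17.97 TPM in S-PRT (n = 4) and at 157.4 ± 68.5 and 101.4 ± 61.9 TPM in F-PRT (n = 3). The summed level of the 35 genes was 714 ± 244 TPM in NR, 658 ± 194 TPM in S-PRT and 640 ± 295 TPM in F-PRT, differences smaller than the spread within each group.

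**Figure D1:**
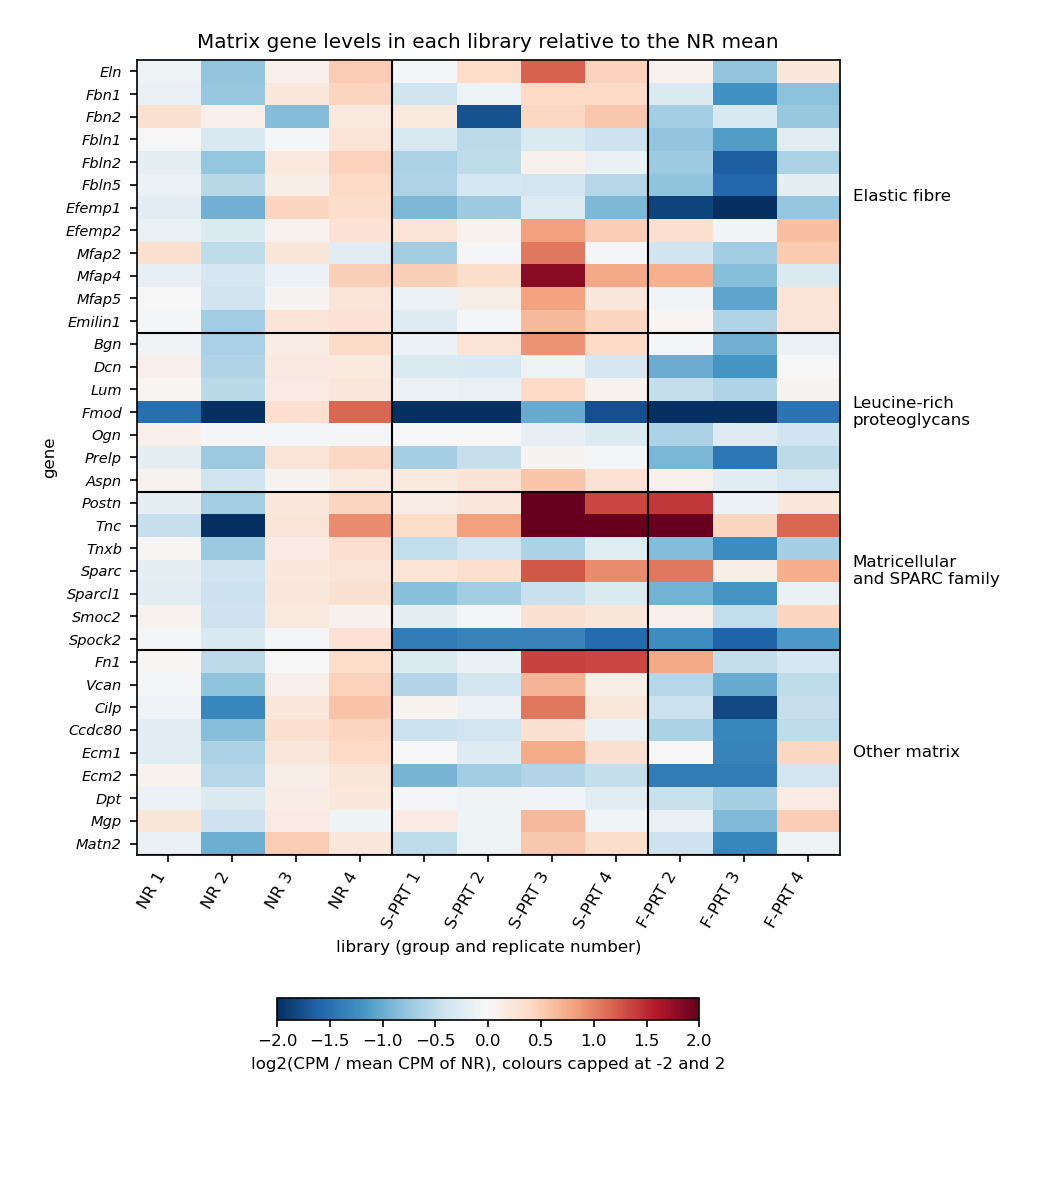
Level of each of the 35 genes (rows, by role) in each of the 11 libraries (columns), as log2 of TMM-scaled CPM (counts scaled to library size) over the NR mean, with colours capped at -2 and 2. Spock2 is low in all 7 irradiated libraries, the column of F-PRT 3 is low for most genes, and Postn and Tnc are highest in S-PRT 3, S-PRT 4 and F-PRT 2.

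After standard irradiation 1 of the 35 genes passed the test and was lower, Spock2, and none was higher, with edgeR's quasi-likelihood test and a Benjamini-Hochberg adjusted p under 0.05 over all genes (calls below follow this rule). In that comparison 1.29% of all genes tested were called, 0.872% higher and 0.419% lower. At an unadjusted p under 0.05 in edgeR, 6 of the 35 were higher and 6 lower, beside 18.3% of all genes in either direction. Fold changes of the list had a median of 0.11 on the log2 scale with 21 positive and 14 negative, beside a median of 0.0068 and 51.3% positive over all genes. That sign is not stable: the list's median was -0.04 with scaling by library size alone, which moved the median of all genes by -0.14, it was -0.04 without S-PRT 3 and -0.07 without NR 2. Same-numbered NR and S-PRT libraries deviated together only weakly (correlations of 0.11 to 0.22), and some pairs of unlike number did so more. A fit with the replicate number as a block was made as an alternative, and it called 9 of the 35 genes (adjusted p, edgeR). It had Postn, Tnc, Sparc and Mfap4 higher, by 1.06 (adjusted p = 0.0139), 1.72 (0.0130), 0.72 (0.0021) and 0.89 (0.0444) on the log2 scale, and Spock2, Sparcl1, Ecm2, Fbln1 and Fmod lower, by -1.41 (0.0012), -0.54 (0.0042), -0.65 (0.0147), -0.38 (0.0260) and -1.74 (0.0287). That fit called 1426 genes in all, 957 higher and 469 lower, against 188 without the block.

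After FLASH irradiation 8 of the 35 genes were lower than in NR and none was higher: the elastic fibre genes Efemp1, Fbln1 and Fbln2, the leucine-rich proteoglycans Ogn and Prelp, the matricellular and SPARC family genes Tnxb and Spock2, and Ecm2. In that comparison 19.5% of all genes tested were called, 10.8% higher and 8.67% lower, so that 8 of 35 is near the background share, while all 8 were in the lower direction. At an unadjusted p under 0.05 in edgeR, 1 of the 35 was higher and 14 lower, beside 36.1% of all genes in either direction. The median log2 fold change of the list was -0.42, with 28 negative and 7 positive, beside a median of 0.028 and 52.8% positive over all genes. Without F-PRT 3 the median was -0.25 with 22 negative and 13 positive, and 6 genes were called, Spock2, Tnxb, Ogn, Efemp1 and Ecm2 lower and Sparc higher. Other settings ended more of the calls: 2 genes were called without F-PRT 2, 3 without each of NR 1, NR 3 and NR 4, 1 with scaling by library size alone, and 0 in the limma fits to log2 TPM and in the blocked fit. Library counts also varied with transcript length: across genes, which are not independent replicates, the rank correlation of a library's deviation from each gene's mean over libraries with transcript length was 0.34 to 0.42 in NR, -0.26 to 0.27 in S-PRT and -0.56 to -0.16 in F-PRT. After this trend was removed, 2 of the 8 remained called, Efemp1 (log2 fold change -1.62, adjusted p = 0.0317, edgeR) and Spock2 (-1.02, adjusted p = 0.0225), and the median of the list was -0.41. In bulk tissue, fewer cells of a type and less RNA per cell cannot be told apart.

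Between the irradiation modes none of the 35 genes was called, and 0% of all 14556 genes were. At an unadjusted p under 0.05 in edgeR, 11 of the 35 were lower in F-PRT and none higher, against 15.9% of all genes in either direction, and DESeq2 called 0 of the 26 for which it gave an adjusted p. Fold changes of F-PRT against S-PRT were negative for 34 of the 35 genes, with a median of -0.38 on the log2 scale, beside 50.4% positive and a median of 0.0020 over all genes. The exception was Spock2, at 0.09 ± 0.18 (SE). Without F-PRT 3, 28 were negative and 7 positive with a median of -0.26, and with scaling by library size alone 29 were negative with a median of -0.21, where the median of all genes lay at 0.19.

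**Figure D2:**
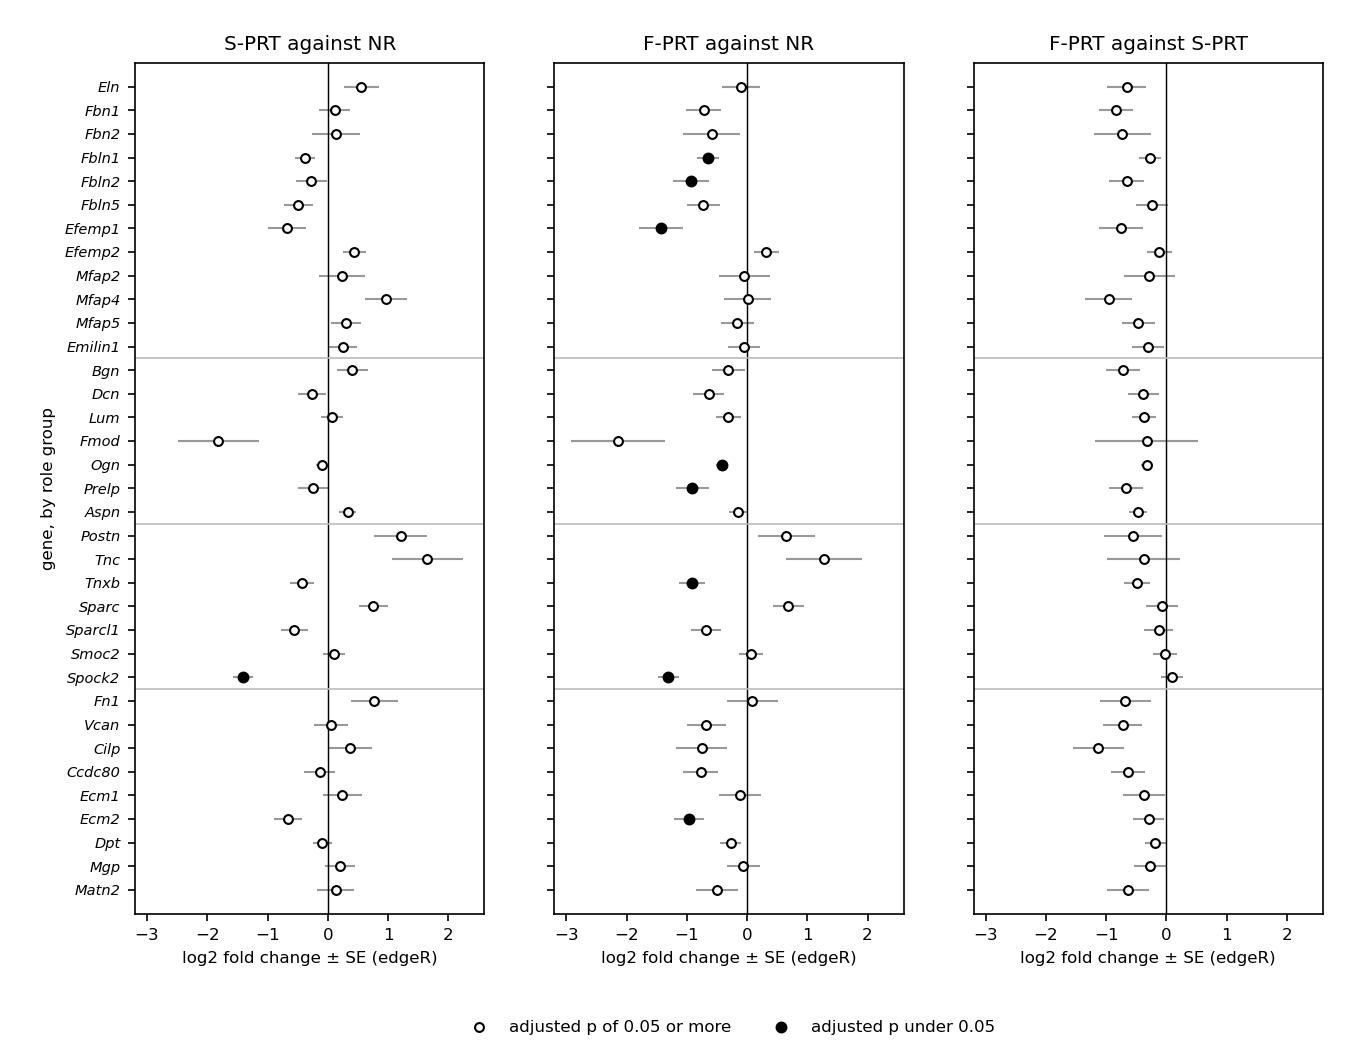
Log2 fold change of each gene in edgeR (points, with bars of 1 standard error) in 3 panels, each irradiated group over NR and then F-PRT over S-PRT, with genes by role group from top to bottom. Filled points passed the adjusted p of 0.05, which were Spock2 in the left panel, 8 genes in the middle panel and none in the right panel.

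Promoter sequences are shown for the 4 called genes with the smallest p in F-PRT against NR (edgeR), a choice made by p alone. They are the 250 bases before the annotated start in RefSeq (GRCm38.p6), printed 5′ to 3′ on the strand of the gene, and capitals mark matches on either strand to 4 motifs. These were the TATA box TATAAA, the motif of AP-1 factors TGANTCA, the motif of TEAD factors CATTCC and the GC box GGGCGG, none of which can hold another.
Spock2 (chr10:60106007-60106256, plus strand): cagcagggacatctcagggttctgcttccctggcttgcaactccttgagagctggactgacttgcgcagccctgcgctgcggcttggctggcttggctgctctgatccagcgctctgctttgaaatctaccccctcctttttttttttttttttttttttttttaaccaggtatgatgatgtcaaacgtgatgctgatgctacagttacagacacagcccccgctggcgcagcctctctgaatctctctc
Tnxb (chr17:34670285-34670534, plus strand): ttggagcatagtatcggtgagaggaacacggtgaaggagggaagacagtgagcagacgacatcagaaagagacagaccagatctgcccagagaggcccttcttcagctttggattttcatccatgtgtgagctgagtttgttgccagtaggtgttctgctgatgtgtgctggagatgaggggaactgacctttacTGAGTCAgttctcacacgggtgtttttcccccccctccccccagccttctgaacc
Ogn (chr13:49607765-49608014, plus strand): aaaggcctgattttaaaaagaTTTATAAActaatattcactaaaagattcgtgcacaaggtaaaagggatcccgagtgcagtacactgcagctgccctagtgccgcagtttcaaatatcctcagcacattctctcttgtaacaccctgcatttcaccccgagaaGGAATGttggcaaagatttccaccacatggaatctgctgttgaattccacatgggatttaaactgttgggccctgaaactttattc
Efemp1 (chr11:28852955-28853204, plus strand): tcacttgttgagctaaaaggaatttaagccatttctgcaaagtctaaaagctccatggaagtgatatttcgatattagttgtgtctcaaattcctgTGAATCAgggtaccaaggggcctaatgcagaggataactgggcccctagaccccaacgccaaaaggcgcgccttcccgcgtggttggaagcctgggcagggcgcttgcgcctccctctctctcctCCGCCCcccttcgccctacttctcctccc
The Tnxb window held 1 TGANTCA match, starting 55 bases before the start, and the Efemp1 window held a TGANTCA match at 154 bases and a GC box at 29 bases before it. The Ogn window held 2 overlapping TATAAA matches at 229 and 227 bases and a CATTCC match at 86 bases before the start, while the Spock2 window held none of the 4 motifs. RefSeq windows of 300 bases, which run 50 bases past the start, were at hand for 23 of the 35 genes (30 windows in all). Of these windows 23.3% held TATAAA, 10% TGANTCA, 6.67% CATTCC and 50% GGGCGG, against 13.6%, 7.81%, 14.7% and 35.7% of all 32851 mouse promoter windows. A match is only a description of the letters.

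Of the 12 elastic fibre genes, none was called after S-PRT and 3 were lower after F-PRT, with median log2 fold changes of 0.19 and -0.38. Efemp1 encodes fibulin-3, a fibulin of basement membranes and elastic tissue. Its counts in NR 1 to 4 were 6.79, 4.07, 10.8 and 10.1 CPM, in S-PRT 1 to 4 they were 4.24, 4.80, 6.61 and 4.26 CPM, and in F-PRT 2 to 4 they were 2.20, 1.78 and 4.66 CPM. F-PRT 2 and 3 lay below every other library, while F-PRT 4 lay above NR 2. Efemp1 fell by 1.43 ± 0.36 (SE) on the log2 scale in F-PRT against NR (adjusted p = 0.0206, edgeR) and stood at -0.68 ± 0.32 in S-PRT (adjusted p = 0.277). The call was lost without NR 3 (-1.25, adjusted p = 0.0508), NR 4 (-1.29, 0.0516) or F-PRT 2 (-1.25, 0.0677).

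Fibulin-1 (Fbln1), which binds fibronectin and elastin, had 52.5, 42.4, 50.9 and 62.8 CPM in NR, 42.0, 36.3, 42.6 and 39.1 CPM in S-PRT and 30.1, 24.0 and 45.3 CPM in F-PRT. Only F-PRT 4 reached the range of NR, and S-PRT touched it with 1 library. It fell by 0.65 ± 0.18 on the log2 scale in F-PRT (adjusted p = 0.0291, edgeR) and stood at -0.38 ± 0.17 in S-PRT (adjusted p = 0.246, and 0.0260 in the blocked fit). Fibulin-2 (Fbln2) is a fibulin of elastic tissue and vessel walls. It had 56.8, 37.8, 73.9 and 88.9 CPM in NR, 41.4, 45.2, 68.2 and 58.5 CPM in S-PRT and 38.7, 20.5 and 41.7 CPM in F-PRT, and NR 2 lay within the F-PRT range. Fbln2 fell by 0.93 ± 0.29 in F-PRT (adjusted p = 0.0426, edgeR) and had -0.27 ± 0.26 in S-PRT (adjusted p = 0.627). These calls depended on single libraries: that of Fbln1 held in 6 of the 11 fits that left out 1 library (log2 fold change -0.95 to -0.47, adjusted p up to 0.0883) and that of Fbln2 in 3 of 11 (-1.12 to -0.68, adjusted p up to 0.107). Fbln1 was lost without NR 1, NR 3, NR 4, F-PRT 2 or F-PRT 3, and Fbln2 without these or without S-PRT 2, S-PRT 4 or F-PRT 4.

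Fibulin-5 (Fbln5), which is needed to assemble elastic fibres, had -0.49 ± 0.24 in S-PRT and -0.73 ± 0.27 in F-PRT on the log2 scale (adjusted p = 0.311 and 0.0734, edgeR). The scaffold gene Fbn1 (fibrillin-1) had 39.9, 26.3, 51.6 and 59.6 CPM in NR, 33.6, 41.2, 58.5 and 58.4 CPM in S-PRT and 36.2, 19.1 and 25.2 CPM in F-PRT. Its F-PRT libraries lay at the low end of NR, with a log2 fold change of -0.72 ± 0.29 against NR (adjusted p = 0.0899, edgeR) and -0.83 ± 0.29 against S-PRT (adjusted p = 0.222). Its expected counts were not whole in 8 libraries, so part of its reads was assigned to it by a model. Elastin (Eln) itself was at 17.0, 10.6, 19.6 and 26.0 CPM in NR, 17.96, 23.5, 41.3 and 25.1 CPM in S-PRT and 19.3, 10.6 and 21.1 CPM in F-PRT. The Eln groups overlapped, with log2 fold changes of 0.56 ± 0.29 in S-PRT and -0.10 ± 0.32 in F-PRT (adjusted p = 0.339 and 0.846, edgeR).

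Mfap4, a microfibril-associated glycoprotein, had 3.66, 3.25, 3.79 and 5.71 CPM in NR, 5.70, 5.24, 14.3 and 6.96 CPM in S-PRT and 6.69, 2.28 and 3.40 CPM in F-PRT. Only NR 4 reached the S-PRT range, with S-PRT 3 far above the rest. Its log2 fold change in S-PRT was 0.97 ± 0.35 (adjusted p = 0.173, edgeR; 0.0444 in the blocked fit), and that in F-PRT against S-PRT was -0.96 ± 0.39 (adjusted p = 0.276). The other 5 members, Fbn2, Efemp2 (fibulin-4), Mfap2, Mfap5 and Emilin1, had log2 fold changes between 0.14 and 0.44 in S-PRT and between -0.59 and 0.32 in F-PRT. None of these 5 was called in any comparison.

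Of the 7 small leucine-rich proteoglycan genes, none was called after S-PRT and Ogn and Prelp were lower after F-PRT, with median log2 fold changes of -0.10 and -0.42. Osteoglycin (Ogn), also called mimecan, binds collagen and regulates fibril growth. Ogn had 80.4, 73.1, 72.7 and 73.8 CPM in NR, 75.5, 75.1, 67.1 and 62.1 CPM in S-PRT and 48.2, 63.1 and 57.2 CPM in F-PRT. All 3 F-PRT libraries lay below all 4 NR libraries, which held for 2 of the 35 genes, Ogn and Spock2, and for 13.9% of all genes tested (0 of the 35 lay above, against 17.5%). Ogn varied least between NR libraries of the 35 genes (highest over lowest 1.11). It fell by 0.42 ± 0.10 on the log2 scale in F-PRT (adjusted p = 0.0181, edgeR), with -0.10 ± 0.09 in S-PRT (adjusted p = 0.608) and -0.32 ± 0.10 in F-PRT against S-PRT (adjusted p = 0.207). The call was lost without NR 1 (-0.38, adjusted p = 0.0582) or F-PRT 2 (-0.32, 0.0614).

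Prelp encodes prolargin, which anchors basement membranes to collagen. It had 22.3, 15.4, 30.7 and 34.2 CPM in NR, 16.2, 18.7, 26.7 and 25.4 CPM in S-PRT and 13.6, 9.40 and 17.9 CPM in F-PRT, so that NR 2 lay within the F-PRT range. Prelp fell by 0.91 ± 0.28 in F-PRT (adjusted p = 0.0392, edgeR) and had -0.24 ± 0.25 in S-PRT (adjusted p = 0.655). The call held in 6 of 11 fits that left out 1 library (-1.16 to -0.71, adjusted p up to 0.0988) and was lost without NR 1, NR 3, NR 4, F-PRT 2 or F-PRT 3. In 10 of 11 libraries Prelp had fractional expected counts, which makes its values uncertain.

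Decorin (Dcn), the most abundant of the family here, had 263, 161, 278 and 280 CPM in NR, 201, 198, 229 and 194 CPM in S-PRT and 123, 107 and 243 CPM in F-PRT. NR 2 stood apart from the other NR libraries, below all of S-PRT and inside the range of F-PRT. Its log2 fold changes were -0.26 ± 0.23 in S-PRT and -0.64 ± 0.26 in F-PRT (adjusted p = 0.599 and 0.0934, edgeR). Asporin (Aspn), which competes with decorin for collagen, had 17.5, 12.6, 17.3 and 19.0 CPM in NR, 18.8, 20.1, 24.4 and 20.2 CPM in S-PRT and 17.6, 14.1 and 13.3 CPM in F-PRT. All F-PRT libraries lay below all S-PRT libraries for Aspn, as for Tnxb, Cilp and Ccdc80, which makes 4 of 35 genes beside 5.17% of all genes tested (0 of 35 lay above, against 5.45%). Aspn had 0.33 ± 0.13 in S-PRT against NR (adjusted p = 0.219, edgeR) and -0.48 ± 0.15 in F-PRT against S-PRT (adjusted p = 0.192).

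Fibromodulin (Fmod), a collagen-binding proteoglycan best known from tendon and cartilage, was among the lowest genes of the list. It had 0.48, 0.22, 1.72 and 3.04 CPM in NR, 0.30, 0.15, 0.68 and 0.40 CPM in S-PRT and 0.19, 0.22 and 0.49 CPM in F-PRT. NR 3 and 4 alone were high, and NR 1 and 2 lay among the irradiated libraries, so its log2 fold changes of -1.82 ± 0.67 in S-PRT and -2.15 ± 0.78 in F-PRT (adjusted p = 0.176 and 0.0698, edgeR) rest on those libraries. The blocked fit called Fmod lower in S-PRT (-1.74, adjusted p = 0.0287). The 6 epicardial and mesothelial markers were high in the same libraries, summing to 1, 0.89, 5.36 and 9.06 TPM in NR, 0.69 to 1.69 TPM in S-PRT and 0.86 to 2.23 TPM in F-PRT. Of these markers 4 passed the filter and 0 were called in either comparison, and their part in the Fmod values was not tested. Biglycan (Bgn) and lumican (Lum), both widely expressed in connective tissue, were not called in any comparison, with log2 fold changes of 0.41 ± 0.25 and 0.06 ± 0.18 in S-PRT and -0.31 ± 0.28 and -0.31 ± 0.20 in F-PRT.

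**Figure D3:**
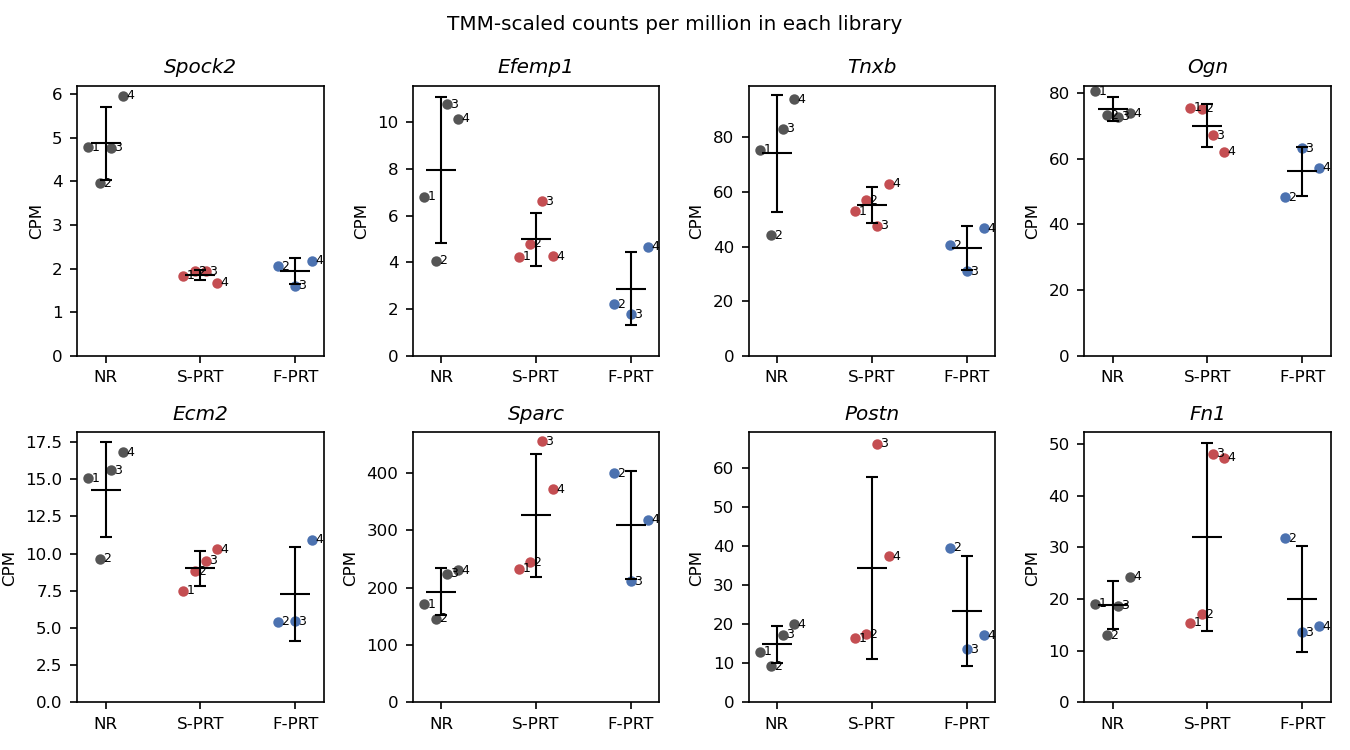
TMM-scaled CPM of 8 genes in each library (points, numbered by replicate), with the mean and SD of each group, for NR (n = 4), S-PRT (n = 4) and F-PRT (n = 3). Spock2 separates every irradiated library from every NR library, Ogn separates F-PRT from NR, and in Postn and Fn1 the group means of the irradiated libraries rest on S-PRT 3, S-PRT 4 and F-PRT 2.

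Of the 7 matricellular and SPARC family genes, 1 was lower after S-PRT (Spock2) and 2 after F-PRT (Spock2 and Tnxb), and median log2 fold changes were 0.10 and 0.07. Spock2, or testican-2, is a secreted heparan sulfate proteoglycan related to SPARC. It had 4.78, 3.96, 4.77 and 5.97 CPM in NR, 1.84, 1.94, 1.94 and 1.68 CPM in S-PRT and 2.05, 1.61 and 2.19 CPM in F-PRT. The lowest NR library lay above every irradiated library, and S-PRT and F-PRT overlapped. Spock2 was the 1 gene of 35 whose S-PRT values were each under every NR value (6.71% of all genes tested), and Sparc the 1 gene with each above (7.34%). It fell by 1.40 ± 0.16 on the log2 scale in S-PRT (adjusted p = 0.0032, edgeR) and by 1.31 ± 0.18 in F-PRT (adjusted p = 0.0035). It stayed below an adjusted p of 0.05 in all 11 fits that left out 1 library, in both comparisons (adjusted p up to 0.0182 in S-PRT and 0.0157 in F-PRT). The limma fits to log2(TPM + 1) and log2(TPM + 0.1) called it in neither comparison (adjusted p up to 0.139 in S-PRT and 0.104 in F-PRT), and the replicate block did not call it in F-PRT (adjusted p = 0.0686, edgeR).

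Tenascin-X (Tnxb) binds collagen fibrils in loose connective tissue. Tnxb had 75.5, 44.2, 83.1 and 94.0 CPM in NR, 52.9, 57.0, 47.7 and 63.1 CPM in S-PRT and 40.5, 31.0 and 46.8 CPM in F-PRT. F-PRT lay below all of S-PRT and below NR 1, 3 and 4, and NR 2 lay inside the F-PRT range. Tnxb fell by 0.91 ± 0.22 in F-PRT (adjusted p = 0.0165, edgeR), a call that held in all 11 fits without 1 library (-1.09 to -0.77), and had -0.43 ± 0.20 in S-PRT (adjusted p = 0.268) and -0.48 ± 0.21 in F-PRT against S-PRT (adjusted p = 0.303). With the trend on transcript length removed its value in F-PRT was -0.43 (adjusted p = 0.403). Tnxb overlaps a Cyp21a2 pseudogene in the RefSeq annotation and Spock2 the microRNA gene Mir6906, and since the strand setting of the counting is not stated in the labels, these counts could hold reads of both.

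Sparc, a collagen-binding protein of remodelling tissue, had 171, 146, 224 and 231 CPM in NR, 233, 244, 455 and 372 CPM in S-PRT and 400, 212 and 318 CPM in F-PRT. Every S-PRT library lay above every NR library, by little for S-PRT 1, and F-PRT 3 lay inside the NR range. Its log2 fold changes were 0.76 ± 0.24 in S-PRT and 0.68 ± 0.26 in F-PRT (adjusted p = 0.133 and 0.0789, edgeR), and DESeq2 called both (adjusted p = 0.0352 and 0.0426). The S-PRT value also passed in the blocked fit, and the F-PRT value without F-PRT 3 (0.90, adjusted p = 0.0254). Its relative Sparcl1 (hevin), which is abundant in vessels, had 152, 132, 209 and 220 CPM in NR, 99.6, 110, 131 and 145 CPM in S-PRT and 92.4, 78.2 and 163 CPM in F-PRT. The Sparcl1 ranges overlapped, with -0.55 ± 0.23 in S-PRT and -0.68 ± 0.25 in F-PRT (adjusted p = 0.215 and 0.0688, edgeR). Sparcl1 was called in S-PRT by the blocked fit, and in F-PRT without F-PRT 4 (-1.06, adjusted p = 0.0173) and in DESeq2 (-0.71, adjusted p = 0.0170). The 6 endothelial markers summed to 66.1 to 151.3 TPM in NR, 41.8 to 85.0 TPM in S-PRT and 40.13 to 109.8 TPM in F-PRT, with 2 of 6 lower in each irradiated group against NR, and their part in the Sparcl1 values was not tested.

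Periostin (Postn), the marker of activated fibroblasts, had 12.9, 9.27, 17.4 and 20 CPM in NR, 16.5, 17.5, 66.3 and 37.5 CPM in S-PRT and 39.6, 13.7 and 17.2 CPM in F-PRT. S-PRT 3, S-PRT 4 and F-PRT 2 stood above NR while the other irradiated libraries lay within its range. Its log2 fold changes were 1.21 ± 0.45 in S-PRT, 0.65 ± 0.48 in F-PRT and -0.56 ± 0.48 in F-PRT against S-PRT (adjusted p = 0.176, 0.347 and 0.586, edgeR), and the blocked fit called it higher in S-PRT (1.06, adjusted p = 0.0139). Tenascin-C (Tnc), which is nearly absent from resting heart muscle, had 0.36, 0.075, 0.59 and 0.95 CPM in NR, 0.64, 0.87, 2.18 and 2.75 CPM in S-PRT and 2.01, 0.67 and 1.09 CPM in F-PRT. The same S-PRT 3, S-PRT 4 and F-PRT 2 were highest, with log2 fold changes of 1.66 ± 0.58 in S-PRT and 1.28 ± 0.64 in F-PRT (adjusted p = 0.162 and 0.166, edgeR), and the blocked fit called it higher in S-PRT (1.72, adjusted p = 0.0130). Smoc2, a SPARC-related calcium-binding protein, had log2 fold changes of 0.10 ± 0.18 and 0.07 ± 0.20.

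The 7 macrophage and monocyte markers summed to 56.8 to 129.0 TPM in NR, 80.7, 80.2, 179.5 and 153.9 TPM in S-PRT and 167.7, 64.6 and 152.0 TPM in F-PRT. Like Postn and Tnc, this sum was high in S-PRT 3, S-PRT 4 and F-PRT 2. It was also high in F-PRT 4, where Postn lay within the NR range. Lyz2 made up most of the sum, with 139 of 167.7 TPM in F-PRT 2 and 134 of 152.0 TPM in F-PRT 4. Of the 6 markers tested, 1 was higher in each irradiated group, Ccr2, a receptor of infiltrating monocytes. The part of these cells in the Postn and Tnc values was not tested.

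Of the 9 other matrix genes, none was called after S-PRT and 1, Ecm2, was lower after F-PRT, with median log2 fold changes of 0.13 and -0.50. Ecm2 encodes a matrix protein related in sequence to the leucine-rich proteoglycans. Ecm2 had 15.1, 9.64, 15.6 and 16.8 CPM in NR, 7.499, 8.83, 9.51 and 10.3 CPM in S-PRT and 5.43, 5.45 and 10.9 CPM in F-PRT. Only NR 2 lay within the range of the irradiated libraries. Ecm2 fell by 0.96 ± 0.25 in F-PRT (adjusted p = 0.0221, edgeR) and had -0.66 ± 0.22 in S-PRT (adjusted p = 0.149, and 0.0147 in the blocked fit). The F-PRT call held in 7 of 11 fits without 1 library (-1.40 to -0.78) and was lost without NR 1 (adjusted p = 0.0530), NR 3 (0.0505), NR 4 (0.0562) or F-PRT 2 (0.0746). In the RefSeq annotation (GRCm38.p6) Ecm2 and Aspn are adjacent, Ogn lies 1 gene further with Omd between, and all 3 overlap Cenpp. Expected counts of all 3 were whole in all 11 libraries, so none of their reads was split with another gene by the model. Reads of Cenpp given whole to these genes would not show in this way.

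Fibronectin (Fn1), the provisional matrix protein of wounds, had 19.1, 13.0, 18.8 and 24.4 CPM in NR, 15.4, 17.1, 48.2 and 47.4 CPM in S-PRT and 31.8, 13.6 and 14.7 CPM in F-PRT. As for Postn, S-PRT 3, S-PRT 4 and F-PRT 2 were high in CPM and the others lay among NR. Log2 fold changes were 0.77 ± 0.38 in S-PRT and 0.09 ± 0.42 in F-PRT (adjusted p = 0.308 and 0.898, edgeR). The F-PRT values depended on the measure: F-PRT 2 to 4 had 8.27, 3.73 and 6.96 TPM, beside 1.82 to 5.11 TPM in NR. Against S-PRT, F-PRT stood at -0.68 in edgeR but at 0.26 and 0.32 in limma on log2(TPM + 1) and log2(TPM + 0.1). Cilp, which in heart is a fibroblast product, had 5.51, 2.35, 6.76 and 8.57 CPM in NR, 6.00, 5.33, 12.1 and 6.78 CPM in S-PRT and 4.29, 1.67 and 4.20 CPM in F-PRT. Cilp was lower in all F-PRT than in all S-PRT libraries, at -1.13 ± 0.42 (adjusted p = 0.246, edgeR), the largest difference of the list between the modes. Ccdc80, a secreted matrix protein of fibroblasts and adipose tissue, had 39.1, 25.4, 57.2 and 61.9 CPM in NR, 34.0, 35.1, 56.5 and 41.8 CPM in S-PRT and 29.6, 18.5 and 32.4 CPM in F-PRT. Its F-PRT libraries lay below all S-PRT libraries and around NR 2, with -0.77 ± 0.29 against NR and -0.64 ± 0.29 against S-PRT (adjusted p = 0.0759 and 0.308, edgeR). Versican (Vcan), the large hyaluronan-binding proteoglycan, had -0.68 ± 0.32 in F-PRT against NR and -0.73 ± 0.32 against S-PRT (adjusted p = 0.145 and 0.297). Ecm1, Dpt (dermatopontin), Mgp and Matn2 had log2 fold changes between -0.09 and 0.24 in S-PRT and between -0.50 and -0.06 in F-PRT, none called.

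Within a group, most of the genes moved together from library to library. As the mean over the 35 genes of log2 CPM minus the NR mean, NR 1 to 4 stood at -0.03, -0.58, 0.21 and 0.40, S-PRT 1 to 4 at -0.23, -0.20, 0.49 and 0.18, and F-PRT 2 to 4 at -0.26, -0.88 and -0.08. F-PRT 3 held the lowest value of its group for 30 of the 35 genes and NR 2 for 33. The median gene differed 1.94-fold between the highest and lowest NR library, 1.69-fold in S-PRT and 2.00-fold in F-PRT. In F-PRT 2 and 4 the mean of the matricellular and SPARC family was higher, at 0.28 and 0.14. Means of the elastic fibre genes were -0.31 and -0.09 and those of the leucine-rich proteoglycans -0.67 and -0.27, a difference that was not tested. The family was mixed: in both libraries Postn, Tnc, Sparc and Smoc2 lay above the NR mean and Tnxb, Sparcl1 and Spock2 below. As log2 CPM over the NR mean, Tnc, a gene of few reads, was highest of the family at 2.02 and 1.14. Spock2 was lowest, at -1.25 and -1.16. The summed TPM of the 7 fibroblast markers was likewise lowest in NR 2 and F-PRT 3 within their groups. It was 369, 231, 518 and 619 TPM in NR, 243, 240, 302 and 312 TPM in S-PRT and 201, 99.1 and 386 TPM in F-PRT. Single markers differed in TMM-scaled CPM. Gsn fell from S-PRT 1 to 4 (652, 620, 536 and 516 CPM), while Col1a1 was higher in S-PRT 3 and 4 (60.4, 66.1, 130 and 99.0 CPM). Ddr2 was lowest in NR 3 and F-PRT 4 within their groups. In F-PRT against NR 2 of these 7 markers were called, both lower (Pdgfra and Gsn), with a median log2 fold change of -0.54, and in S-PRT against NR 0 of 7, with a median of 0.13. Gsn made up most of that sum, with 71.7 of 99.1 TPM in F-PRT 3 and 308 of 386 TPM in F-PRT 4. Other marker sums in TPM also varied by library. Those of cardiomyocytes, endothelial cells, smooth muscle and pericytes, and macrophages and monocytes were lowest in F-PRT 3 within F-PRT and highest in NR 4. These sums are not TMM-scaled, unlike the CPM of the matrix genes. In TMM-scaled CPM no cardiomyocyte marker was lowest in F-PRT 3 within F-PRT or highest in NR 4 within NR. Tnnt2, for example, had 6389, 7581 and 7207 CPM in F-PRT 2 to 4. The mitochondrial share of counts was 43.8, 38.8, 34.9 and 30.6% in NR 1 to 4, 43.5, 42.7, 41.5 and 37.1% in S-PRT 1 to 4, and 31.6, 42.3 and 24.2% in F-PRT 2 to 4. The part of the fibroblast markers, the other markers and the mitochondrial share in the values of the matrix genes was not tested.

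**Figure D4:**
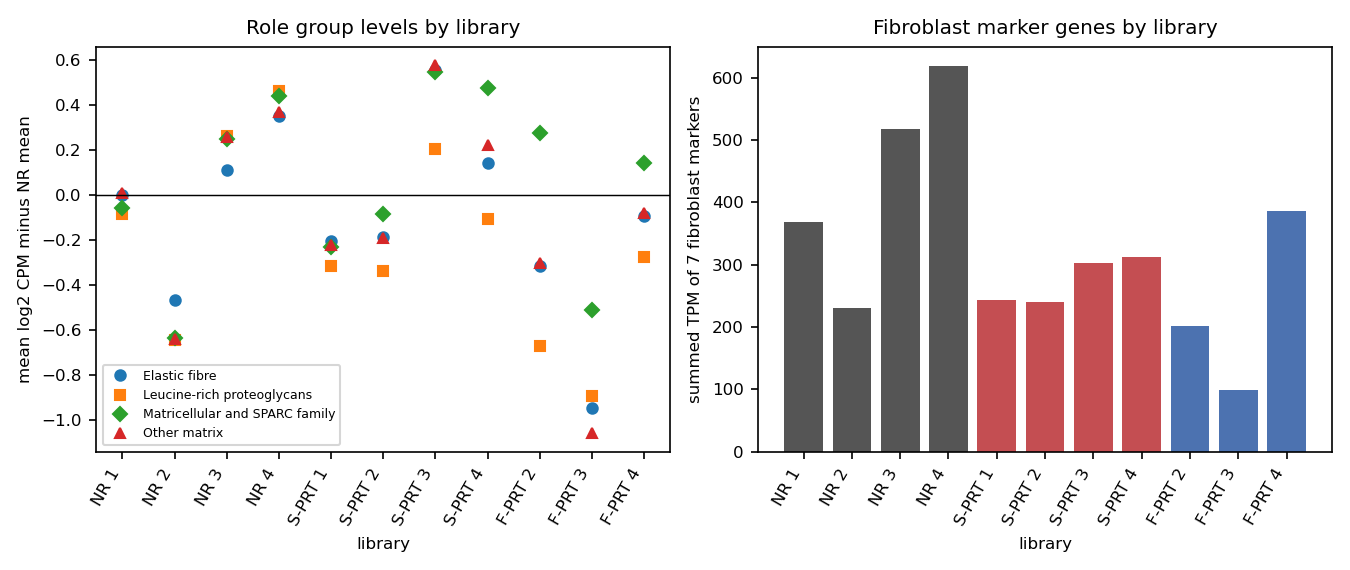
Left, mean over each role group of log2 CPM minus the NR mean in each library (12, 7, 7 and 9 genes). Right, summed TPM of 7 fibroblast marker genes in the same libraries (bars). NR 2 and F-PRT 3 are lowest in their groups in both panels, at 231 and 99.1 TPM on the right.

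A second readout of the files, the gene length weighted by the estimated abundance of its isoforms, shifts when the isoform mix as estimated shifts. It could be tested for 30 of the 35 genes. In F-PRT against NR 3 of the 30 were called by limma, beside 3.69% of the 11314 genes tested. Efemp1 had weighted lengths of 1982, 1828, 1970 and 1939 bases in NR, 1624, 1498, 1608 and 1976 bases in S-PRT and 1383, 1288 and 1357 bases in F-PRT. All F-PRT libraries lay below all others, a log2 ratio of -0.52 ± 0.083 (SE) against NR (adjusted p = 0.0204, limma). Fn1 had 5782, 6496, 5033 and 5738 bases in NR, 4204, 4692, 5371 and 5855 bases in S-PRT and 4166, 2900 and 2511 bases in F-PRT. Its log2 ratio was -0.88 ± 0.18 against NR (adjusted p = 0.0385, limma), and which isoforms this rests on was not tested. Again F-PRT lay below every other library, while the counts of Fn1 overlapped. Mfap5, a microfibril glycoprotein, was longer, with 862, 790, 863 and 813 bases in NR, 904, 969, 888 and 976 bases in S-PRT and 1067, 932 and 989 bases in F-PRT, and a log2 ratio of 0.26 ± 0.056 against NR (adjusted p = 0.0445, limma). The S-PRT to NR comparison and that between the irradiated groups each gave 0 calls among the 30 and 0% of all genes in limma. At an unadjusted p under 0.05, limma had 2 of 30 in each, beside 6.19% and 13.6% of all genes, and 6 of 30 in F-PRT against NR beside 20.9%. The calls rest on single libraries: 0 of the 30 were called without NR 1, NR 3 or NR 4, and 1, Efemp1, without NR 2, S-PRT 2, S-PRT 3 or F-PRT 4. Without F-PRT 3 they were Efemp1, Mfap5 and Fbln2, and without S-PRT 1, S-PRT 4 or F-PRT 2 they were Efemp1 and Fn1. The length trend across libraries described above goes with the same groups, and its part in these shifts was not tested.

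**Figure D5:**
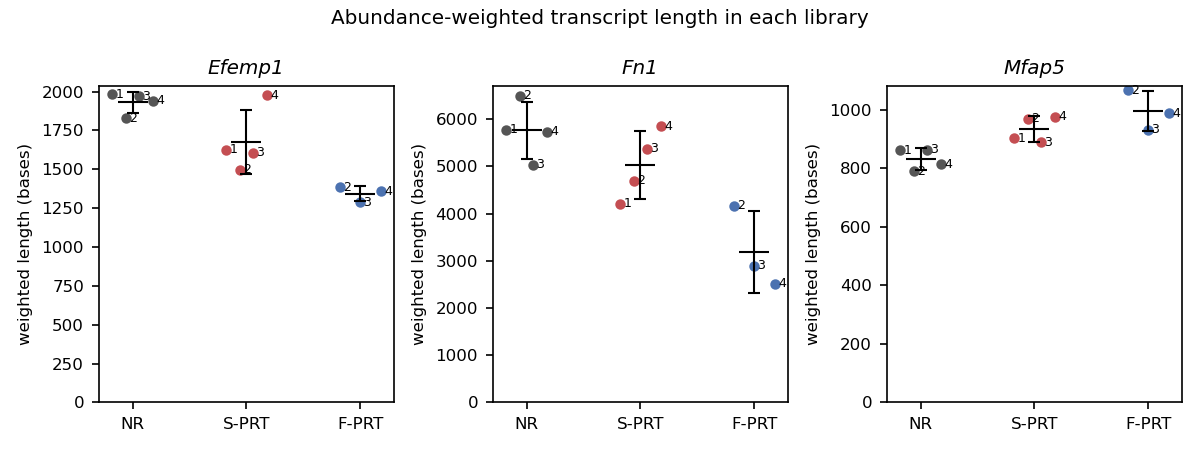
Abundance-weighted transcript length in bases of Efemp1, Fn1 and Mfap5 in each library (points, numbered by replicate), with group mean and SD for NR (n = 4), S-PRT (n = 4) and F-PRT (n = 3). For Efemp1 and Fn1 the 3 F-PRT libraries lie below all others, and for Mfap5 all irradiated libraries lie above NR.

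Genes that act with these proteins were read from 3 lists. Of 11 listed partners of elastic fibres (latent TGF-beta binding proteins, crosslinking enzymes, TGF-beta ligands, Emilin2 and Fbln7), 10 were tested, all but Fbln7. Among them 0 were called in S-PRT against NR (smallest p for Ltbp4, log2 fold change -0.57 ± 0.23, adjusted p = 0.205, edgeR; the blocked fit called Ltbp4 lower and Tgfb1 higher). In F-PRT against NR 2 were lower, Ltbp1 (-0.48 ± 0.13, adjusted p = 0.0278, edgeR), which stores latent TGF-beta in the matrix, and Emilin2 (-0.32 ± 0.10, adjusted p = 0.0433), and neither was called once the trend on transcript length was removed. Of 14 hyaluronan and versican partners 9 were tested and 0 called in either comparison, the smallest p being those of Adamts4, a versican-cleaving protease, in S-PRT (1.71 ± 0.57, adjusted p = 0.142, edgeR) and Adamts9 in F-PRT (-0.57 ± 0.21, adjusted p = 0.0695), while the blocked fit for S-PRT called Cd44 and Adamts4 higher. Of 10 listed receptors for matrix proteins all were tested and 0 called, the smallest p being those of Ddr2 in S-PRT (0.18 ± 0.09, adjusted p = 0.321, edgeR) and of the integrin beta-1 gene Itgb1 in F-PRT (-0.20 ± 0.08, adjusted p = 0.101). The blocked fit for S-PRT called 1 of them, Itga9, higher, and the F-PRT fit with the length trend removed called 1, Itgav, higher. At an unadjusted p under 0.05 in edgeR there were 2, 2 and 0 genes of the 3 lists in S-PRT, beside 18.3% of all genes, and 4, 4 and 1 in F-PRT, beside 36.1%. The 2 of 10 elastic fibre partners called lower in F-PRT stand beside 8.67% of all genes, and in F-PRT against S-PRT 0 genes of the 3 lists were called, with 2, 0 and 4 at an unadjusted p under 0.05, beside 15.9%.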

How the data were processed

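RNA-seq of 11 heart apex libraries was analysed, grouped and numbered by the sample titles. RNA of integrity number above 9 was poly(A)-selected and made into directional libraries, per the labels' protocols. The submitters' processing notes list STAR, RSEM, cutadapt, FastQC and edgeR without versions and name both GRCm39 and mm10. No source used here states the strand setting. The deposited values are RSEM expected counts per gene, TPM, and gene lengths in bases averaged over isoforms by estimated abundance, per the file headers. Ambiguous reads were split by RSEM's model. Of 55414 identifiers, 52081 matched a symbol. Expected counts were whole (to 1e-09) in all libraries for 31 of the 35 genes.

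Expected counts were rounded, filtered with filterByExpr (minimum count 10, minimum total 15), scaled by TMM and fitted for all 11 libraries in edgeR 4.0.16 (R 4.3.3, 8 residual degrees of freedom), with Benjamini-Hochberg adjustment over 14556 genes. Standard errors are the fold change divided by the root of its F. CPM are TMM-scaled. Lengths of genes with a mean count of at least 20 were tested in limma 3.58.1. Fits were tested on simulated counts. No libraries of a group were alike within counting noise. All 35 genes are accounted for, and full statistics go to called genes and to the 2 with the smallest p per role group and comparison. Partner lists give called genes or the smallest p. Members, lists and markers were chosen with earlier results of these data known. Between groups, same-numbered deviations from group means correlated at 0.11 to 0.22 for NR and S-PRT (all 4 pairs over 0.1, with 3 of 8 libraries closest to their own number). Some pairs of unlike number correlated more, at 0.30 for NR 2 with S-PRT 1 and 0.24 for NR 3 with S-PRT 4. Whether the numbers pair the libraries is therefore not settled, and the block is only an alternative fit. The numbers come from titles, with no animal, day or batch named.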

Additional observations from a re-analysis of the deposited data

Results flagged for a closer look

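Of 70 gene and group combinations (35 genes in NR and in S-PRT), 3 had 1 library far from the other 3, where chance alone gives about 1 in 20. Decorin (Dcn) in NR 2 had 161 CPM against 263 to 280 CPM in the other NR libraries, a gap of 0.882 of the group's range. Osteoglycin (Ogn) in NR 1 had 80.4 CPM against 72.7 to 73.8 CPM (0.858 of the range). Fibrillin-2 (Fbn2) in S-PRT 2 had 0.145 CPM against 0.557 to 0.711 CPM (0.83 of the range), at a level of few reads. The F-PRT group of 3 was too small to examine in this way.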

How the results depend on the processing

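Fold changes were recomputed under 22 other settings, 11 of which left out 1 library, and lengths under 14. No called result changed sign. Uncalled values of the 35 genes did so 120 times over all comparisons and settings, among them Fbn1, Lum, Vcan and Matn2 in S-PRT against NR. Of the 35 genes, the number called in S-PRT against NR (1) was 6 with no filter on low counts, 2 in DESeq2, 2 with 1 surrogate variable, 0 in limma on log2(TPM + 1) and on log2(TPM + 0.1), and 1 to 2 without 1 library. The number called in F-PRT against NR (8) was 1 with library size only, 15 with no filter and in DESeq2, 5 with only the compared groups, 2 with the length trend removed, 17 with 1 surrogate variable, 0 in both TPM fits and 2 to 11 without 1 library (2 without F-PRT 2, 3 without each of NR 1, 3 and 4). The cause was not tested.

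With the replicate block, whose pairing is not settled, 9 of the 35 were called in S-PRT against NR. In F-PRT, where same-numbered libraries shared only a number (correlations of -0.21 to 0.16 with NR and -0.25 to -0.15 with S-PRT, with 2 and 0 of 6 libraries closest to their own number), the replicate block gave 0 of the 35 in counts and 0 in lengths, on 6 libraries. It changed no other call of the 35 genes.

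Over all genes, 188 calls in S-PRT against NR became 14 with library size only, 605 with no filter, 697 in DESeq2, 583 with only the compared groups, 1426 with the replicate block, 44 with the length trend removed, 429 with 1 surrogate variable, 2 and 3 in the TPM fits and 26 to 447 without 1 library. The 2841 calls in F-PRT against NR became 134 with library size only, 29 with the replicate block, 497 with the length trend removed, 71 and 74 in the TPM fits and 1391 to 3801 without 1 library. In F-PRT against S-PRT the 0 calls became 3 with DESeq2 size factors, 71 with no filter, 167 in DESeq2, 6 with 1 surrogate variable, 9 and 4 in the TPM fits and 0 to 104 without 1 library (104 without F-PRT 3).

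Genes whose weighted length was called in F-PRT against NR (418) were 126 with only the compared groups, 0 with the replicate block and 117 to 808 without 1 library. Of the 30 matrix genes tested for length (3 called), 1 was called with only the compared groups and 0 to 3 without 1 library, where the 3 without F-PRT 3 include Fbln2 in place of Fn1. For S-PRT against NR 0 to 4 genes were called without 1 library, and for F-PRT against S-PRT 3 with a mean count of at least 100 and 0 to 98 without 1 library.

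Over the single-gene values in all settings, a call was lost 67 times and gained 31 times in F-PRT against NR, and lost 2 times and gained 16 times in S-PRT against NR. Depth limits Fbn2, which was under 1 CPM in every library. It also limits the fold changes of Tnc, with 2 to 116 expected counts per library, Fmod, with 3 to 137, and Mfap2, with 10 to 61. Coordinates of the genes themselves are not given, as the files' build is not certain.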
